A study of Mus musculus with 16 samples.

Results

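Transcripts of hemoglobin and of its erythroid heme enzyme were measured in sorted brain oligodendrocytes as a reading of blood carried over into each library. The genes are Hbb-bs and Hbb-bt, which encode adult beta-globin chains, Hba-a1 and Hba-a2, which encode adult alpha-globin chains, and Alas2, the erythroid 5-aminolevulinate synthase. They were taken by symbol, and all 5 were found among the 32207 genes of the deposited table. Brain cells of OF-1 mice, an outbred strain, were sorted with magnetic beads for O4, a surface antigen of the oligodendrocyte lineage, on postnatal day 16. The groups are females whose mothers drank bisphenol A (BPA, a plastics monomer with estrogenic activity), control females, BPA males and control males, with 4 libraries each. BPA was given from gestational day 7 through lactation, at an exposure the labels estimate as 40 µg/kg/day. That estimate does not follow from the concentration in water that the same text gives, so its scale was not settled. All mice share the strain, age and sort, and exposure reached the pups through their mothers. Each library came from a separate mouse. Litters are not given in the sources used here, so littermates may share a group and p-values for BPA may be too small. Shared litters could also affect p-values between the sexes, in a direction that is not known.

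Hemoglobin is built from alpha-like and beta-like globin chains, each of which holds a heme group. Mature red cells of mammals have no nucleus, but reticulocytes, the youngest red cells in blood, still carry large amounts of globin and Alas2 RNA. Alas2, on the X chromosome, catalyses the rate-limiting step of heme synthesis in erythroid cells, while Alas1 does so elsewhere. Hemoglobin RNA has also been reported in rodent neurons and glia. In bulk libraries, fewer cells of a type and less RNA per cell cannot be told apart.

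Total counts were between 23603816 and 42575326 per library, so that 3 counts, the limit that a count of 0 allows, correspond to between 0.0705 and 0.127 CPM (counts scaled to a common library size). The sort was checked on fixed marker lists. Mbp, which encodes myelin basic protein, averaged 17655 CPM over the 16 libraries. Markers of other cells were also present, and 2 libraries stood apart: summed astrocyte markers reached 5667 CPM in BPA male 2, and summed microglia markers 2145 CPM in BPA female 1. Each comparison was therefore also made without both, as given among the dependences on processing.

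The globin and Alas2 promoters are shown because the genes vary together across libraries and are classic targets of erythroid factors. The windows are the 250 bases before each RefSeq gene start on build GRCm38.p6, and their coordinates hold for that build only. Capitals mark 4 short motifs on either strand: GATAA (the core that GATA factors bind), CACCC (bound by Krüppel-like factors), CCAAT (bound by NF-Y) and TATAA.
Hbb-bs, chr7:103827929-103828178, minus strand: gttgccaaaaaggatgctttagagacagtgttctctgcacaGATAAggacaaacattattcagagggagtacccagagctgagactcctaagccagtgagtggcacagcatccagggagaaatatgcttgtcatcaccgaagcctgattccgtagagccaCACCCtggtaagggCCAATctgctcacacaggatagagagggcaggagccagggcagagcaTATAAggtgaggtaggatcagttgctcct
Hbb-bt, chr7:103813924-103814173, minus strand: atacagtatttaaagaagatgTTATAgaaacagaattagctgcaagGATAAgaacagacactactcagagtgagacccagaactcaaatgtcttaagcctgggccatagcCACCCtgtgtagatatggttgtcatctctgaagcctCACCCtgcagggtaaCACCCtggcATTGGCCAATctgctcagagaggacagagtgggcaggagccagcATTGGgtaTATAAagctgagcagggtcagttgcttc
Hba-a1, chr11:32283422-32283671, plus strand: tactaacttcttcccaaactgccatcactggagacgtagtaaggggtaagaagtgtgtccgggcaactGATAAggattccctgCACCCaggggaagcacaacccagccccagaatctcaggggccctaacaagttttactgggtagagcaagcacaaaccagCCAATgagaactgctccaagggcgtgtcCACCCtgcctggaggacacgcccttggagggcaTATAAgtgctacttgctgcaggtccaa
Alas2, chrX:150547167-150547416, plus strand: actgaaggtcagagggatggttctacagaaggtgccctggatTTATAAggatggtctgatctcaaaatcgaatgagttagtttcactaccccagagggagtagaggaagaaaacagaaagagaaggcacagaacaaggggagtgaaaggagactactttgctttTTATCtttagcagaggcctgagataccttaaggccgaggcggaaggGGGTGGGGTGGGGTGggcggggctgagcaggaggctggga

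All 5 windows held GATAA, which 22.6% of 32851 promoter windows of the same length hold. All 5 also held CACCC, against 52.0% of all windows, and TATAA, against 22.8%. CCAAT was present in the 4 globin windows, against 33.8% of all windows, and these letters are not in the Alas2 window. Counted back from the start, a TATAA began between positions -30 and -27 in the globin windows, while in the Alas2 window overlapping matches began at -208 and -207. The CACCC matches of Alas2 stood in an uninterrupted run, at -40, -35 and -30. In Hbb-bt, CCAAT matches began at -80, -75 and -36, the leading pair side by side. The Hba-a2 window is not printed because 247 of its 250 bases are an unbroken match to that of Hba-a1, whereas the longest run shared by the Hbb-bs and Hbb-bt windows was 14 bases.

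The transcripts overlap in sequence as well, which limits what a count for each globin gene means. Of all 50-base words in the annotated Hba-a2 transcripts, 89.3% also occur in Hba-a1, and 72.3% of the Hba-a1 words occur in Hba-a2. Hbb-bs and Hbb-bt share 53.2% of the words of Hbb-bs and 58.3% of those of Hbb-bt. The words of Alas2 transcripts occur in no other annotated gene. How reads that match several genes were counted is not given in the sources used here. The split of counts within each globin pair is therefore uncertain, and pair sums are given beside the single genes. If reads that match several genes were left uncounted, they are missing from the pair sums too.

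Hbb-bs was the most abundant of the 5 transcripts in every library. It stood at 3419, 1403, 1519 and 1922 CPM in the BPA females, against 2398, 1050, 1189 and 1649 CPM in the control females. In males it stood at 1222, 1233, 587 and 557 CPM in the BPA group, against 899, 980, 696 and 1094 CPM in the controls. BPA female 1 and control female 1 were the highest of their groups, and BPA males 3 and 4 were the lowest of all 16 libraries. The BPA and control groups overlapped in both sexes, and 6.13-fold lay between the highest and the lowest library.

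Hbb-bt, the minor adult beta-globin gene in these counts, followed the same outline at a lower level. Its values were 271, 110, 198 and 148 CPM in BPA females, against 213, 127, 145 and 146 CPM in control females. In BPA males they were 105, 97.2, 47.1 and 40.97 CPM, against 70.4, 77.3, 88.1 and 86.2 CPM in control males. The lowest female library lay above the highest male library, while BPA and control libraries overlapped within each sex. Hbb-bs and Hbb-bt together averaged 2247 ± 988 CPM in BPA females, 1729 ± 644 in control females, 972 ± 411 in BPA males and 998 ± 166 in control males (SD, n = 4 each).

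Hba-a1 carried nearly all alpha-globin counts. It stood at 1042, 494, 649 and 730 CPM in BPA females, against 711, 424, 454 and 589 CPM in control females. BPA males had 470, 444, 204 and 201 CPM, against 343, 356, 274 and 391.8 CPM in control males. The same BPA males 3 and 4 were lowest, the same BPA female 1 was highest, and exposure groups overlapped in both sexes.

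Hba-a2 was close to the limit of detection, with raw counts between 8 and 23 in the females and between 2 and 16 in the males. In CPM it reached 0.578, 0.608, 0.499 and 0.635 in BPA females, against 0.477, 0.527, 0.198 and 0.542 in control females. BPA males had 0.262, 0.398, 0.0670 and 0.0814 CPM, against 0.137, 0.197, 0.199 and 0.413 CPM in control males. Several male values lie at or near the level of 3 counts. A count of 10 was reached in 7 of 8 female and 2 of 8 male libraries, so the gene passed the filter on low counts mainly through the females and is left out of member counts between the sexes. Because the alpha-globin messages are nearly identical, these few counts cannot be assigned firmly to Hba-a2. Hba-a1 and Hba-a2 together averaged 730 ± 231 CPM in BPA females and 545 ± 132 CPM in control females (SD, n = 4 each). In BPA males the sum was 330 ± 147 CPM, and in control males 341 ± 49.4 CPM.

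Alas2 stood at 165, 63.2, 79.6 and 90.8 CPM in BPA females, against 131, 55.2, 74.8 and 95.2 CPM in control females. BPA males had 71.5, 74.7, 26.3 and 25.7 CPM, against 56.4, 52.0, 39.1 and 56.5 CPM in control males. The libraries that were high and low in globin RNA were high and low here too, although Alas2 shares no 50-base word with any globin gene.

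**Figure D1:**
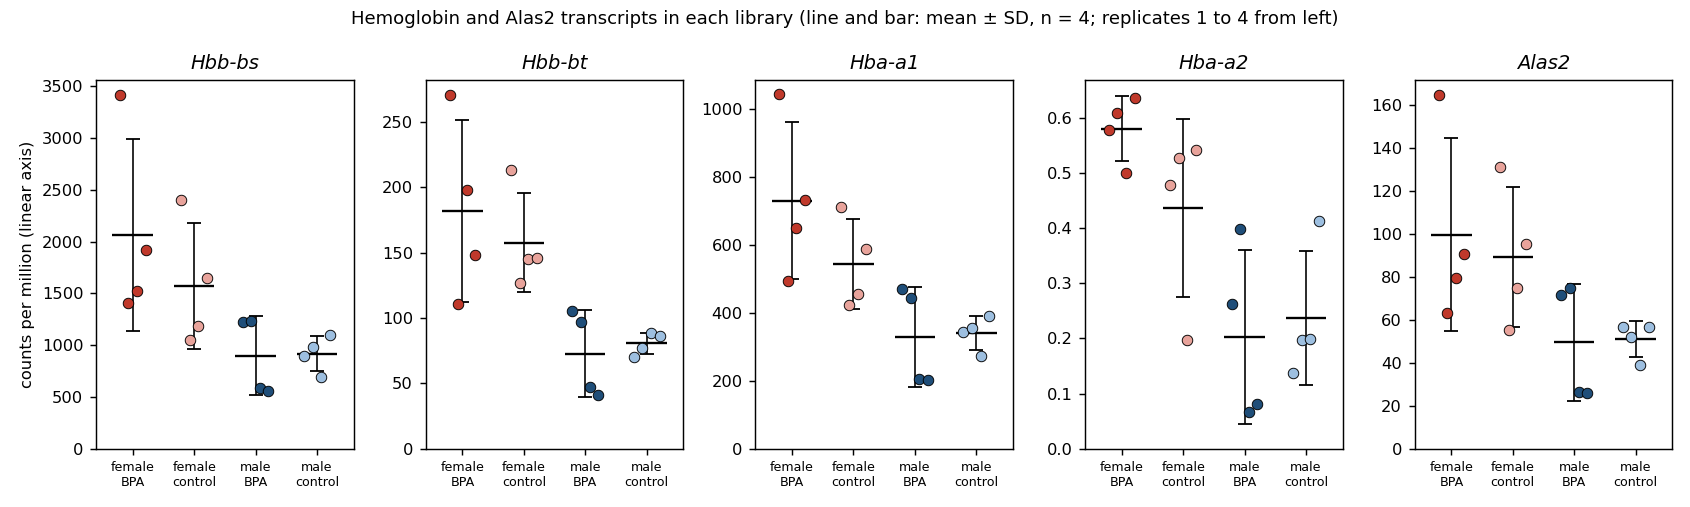
CPM of each transcript (vertical, linear axis) in the 16 libraries, grouped by sex and exposure, with replicates 1 to 4 from left and the mean ± SD of 4 libraries as line and bar. In every panel the female groups lie above the male groups on average and BPA overlaps control. BPA males fall into a higher pair (1 and 2) and a lower pair (3 and 4) for every gene, for example 1222 and 1233 against 587 and 557 CPM of Hbb-bs.

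Compared per length on the authors' scale (normalized counts divided by median transcript length in kilobases), the order of the genes was the same in each group. Hbb-bs averaged 174051 ± 77466 in BPA females, 131944 ± 51225 in control females, 75840 ± 31821 in BPA males and 77226 ± 14225 in control males (SD, n = 4 each). Hba-a1 was next with 41924, 31196, 18967 and 19599 in the same order of groups, and Hbb-bt followed with 8870, 7661, 3543 and 3926. Alas2 averaged 2774, 2475, 1382 and 1421, and Hba-a2 38.03, 28.4, 13.2 and 15.5. The length used by the authors for Hbb-bs, 0.407 kb, was the shortest of the 5, and the longest annotated Hbb-bs transcript has 628 bases.

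Summed, the 5 transcripts were a small part of every library. They held 0.508% of all counts in BPA female 1 (95% Wilson interval 0.506 to 0.511) and 0.0791% in BPA male 4 (0.0783 to 0.0800). The intervals cover counting error only. How reads that match several globin genes were counted is not given, so the shares may be too low. The parts of single genes in them are uncertain for the same reason. The share averaged 0.313 ± 0.134% in BPA females and 0.235 ± 0.0795% in control females, and 0.135 ± 0.0616% in BPA males and 0.139 ± 0.0205% in control males (SD, n = 4 each). Hbb-bs made up between 62.1 and 69.8% of the counts of the 5 genes. The spread between libraries of 1 group was many times the counting interval of a library.

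BPA was not associated with a called difference in any of the 5 transcripts in either sex. In limma-voom fits of 16339 genes, 0 of 5 passed an adjusted p of 0.05 in males, where 0.00612% of all genes passed, and 0 of 5 in females, where 0.0% passed. With both sexes combined it was again 0 of 5, against 0.0184% of all genes. At an unadjusted p under 0.05 it was 0 of 5 in each of these comparisons too, against 7.96%, 4.55% and 7.69% of all genes. Group ranges overlapped for all 5 genes in each comparison, whereas 4.45% of all genes did not overlap in males, 3.33% in females and 0.0857% in both. No other count test was run.

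The fitted differences were small beside their errors. In females Hbb-bs had a log2 fold change of 0.38 ± 0.34 (SE, adjusted p = 0.999), with a 95% interval from 0.786-fold to 2.15-fold of the controls. In males its log2 fold change was -0.12 ± 0.32 (adjusted p = 0.958), with an interval from 0.574-fold to 1.48-fold. Hba-a1 stood at 0.40 ± 0.30 in females and -0.16 ± 0.28 in males (log2, SE, adjusted p = 0.999 and 0.928). Hbb-bt stood at 0.15 ± 0.31 and -0.27 ± 0.30 (0.999 and 0.877), and Alas2 at 0.14 ± 0.37 and -0.20 ± 0.38 (0.999 and 0.932). Hba-a2, with its few counts, had 0.49 ± 0.40 in females and -0.40 ± 0.53 in males (0.999 and 0.902).

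The fitted sign was positive in females and negative in males for every gene, and these signs are not independent since the genes vary together. The difference between the sexes in the BPA effect was itself tested. It was 0.49 ± 0.47 for Hbb-bs, 0.42 ± 0.43 for Hbb-bt, 0.56 ± 0.41 for Hba-a1, 0.89 ± 0.67 for Hba-a2 and 0.34 ± 0.53 for Alas2 (female minus male, log2, SE). The adjusted p was 0.999 for each, 0.0% of all genes passed 0.05, and at an unadjusted p under 0.05 it was 0 of 5 against 4.72% of all genes. Leaving out BPA female 1 turned the female estimate of Hbb-bt to -0.07 and that of Alas2 to -0.14, and leaving out control female 2 turned that of Alas2 to -0.07. Leaving out BPA male 3 or 4 turned the male estimates of Hbb-bs, Hba-a1 and Alas2 positive, at up to 0.09.

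Females had about 2-fold more of these RNAs than males in the fit over both exposures, but none passed adjustment over all genes. Hbb-bs averaged 1818 ± 773 CPM in 8 females and 909 ± 271 CPM in 8 males (SD), a fitted 1.95-fold difference (95% interval 1.38 to 2.76, adjusted p = 0.6001 by limma-voom). Hbb-bt averaged 170 ± 53.3 CPM in females and 76.6 ± 22.8 CPM in males, a 2.23-fold difference (1.62 to 3.06, adjusted p = 0.0983). Hba-a1 averaged 637 ± 200.1 and 335 ± 102 CPM, 1.91-fold (1.41 to 2.59, adjusted p = 0.371). Alas2 averaged 94.3 ± 36.7 and 50.3 ± 18.6 CPM, 1.88-fold (1.27 to 2.79, adjusted p = 0.999).

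**Figure D2:**
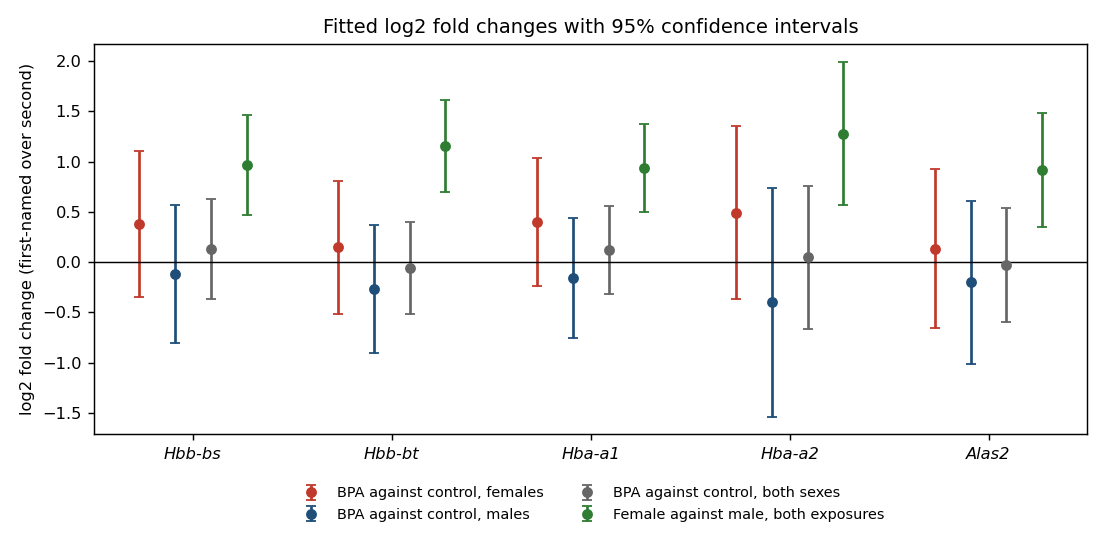
Fitted log2 fold change (vertical axis, first-named group over second) of each gene in 4 comparisons, with 95% confidence intervals from limma-voom. The intervals for BPA against control include 0 for every gene, while those for females against males lie above 0, from 0.35 to 1.48 for Alas2 and from 0.69 to 1.61 for Hbb-bt. These intervals are not adjusted for the number of genes tested. Hba-a2 passed the filter on low counts mainly through the females, so its interval between the sexes is not read as a difference.

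Of the 4 members other than Hba-a2, 0 passed an adjusted p of 0.05 between the sexes, where 0.0673% of all genes did. All 4 had an unadjusted p under 0.05 with females higher, against 2.33% of all genes. The unadjusted p of Hbb-bt was 7.75e-05, that of Hba-a1 0.000363, that of Hbb-bs 0.000873 and that of Alas2 0.00369. Ranked by p, Hbb-bt was at place 12 of 16339, Hba-a1 at 16, Hbb-bs at 23 and Alas2 at 54. Among the 15779 genes outside the X and Y chromosomes, Hbb-bt had the smallest p of all, and Hba-a1 and Hbb-bs stood at places 3 and 9. The 4 genes vary together, so these ranks are not independent of each other. Unknown litters limit these p-values and ranks as well. Hba-a2 had 0.508 ± 0.136 CPM in females and 0.219 ± 0.132 CPM in males (adjusted p = 0.912).

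The separation of the sexes was present under both exposures, though not for every gene. Hbb-bt did not overlap between 8 females, with a lowest value of 110 CPM, and 8 males, with a highest value of 105 CPM, and 0.049% of all genes were separated in this direction. Within BPA, Hbb-bs, Hbb-bt and Hba-a1 did not overlap between the sexes, against 1.34% of genes separated in this direction. Within controls this held for Hbb-bt and Hba-a1, against 0.924%. Alas2 overlapped in both: its lowest BPA female value, 63.2 CPM, lay below 74.7 CPM in BPA male 2. The order of group means was the same for Hbb-bs, Hbb-bt, Hba-a1 and Alas2, with BPA females highest, then control females, control males and BPA males. These genes vary together, so the shared order is not independent between them. The neighbours BPA females and control females, and control males and BPA males, overlapped for each gene.

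The summed CPM of the 5 genes was 4897, 2071, 2446 and 2892 in BPA females and 3454, 1656, 1864 and 2479 in control females. It was 1868, 1849, 865 and 825 in BPA males and 1369, 1466, 1098 and 1629 in control males. By this sum each BPA female lay above each BPA male, and each control female above each control male, while the lowest control females lay below or near BPA males 1 and 2.

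The 5 transcripts varied together from library to library. Over 16 libraries, log2 CPM of Hbb-bs and Hba-a1, which lie on chromosomes 7 and 11, correlated with Pearson's r = 0.98 and Spearman's rho = 0.98 (permutation, adjusted p = 1.7e-05 for r and 2e-05 for rho over 10 pairs). Hbb-bs and Alas2 had r = 0.97 and rho = 0.96 (permutation, the same adjusted p), and Hba-a1 and Alas2 r = 0.97 and rho = 0.94. The underlying p of 1e-05 is the smallest that 100000 resamples can give. Hbb-bt followed Hbb-bs with r = 0.92 and rho = 0.91, Hba-a1 with r = 0.95 and rho = 0.94, and Alas2 with r = 0.93 and rho = 0.90.

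These relations did not rest on the group means or on the extreme libraries. With group means removed, r was 0.97 for Hbb-bs with Hba-a1, 0.97 for Hbb-bs with Alas2, 0.98 for Hba-a1 with Alas2 and 0.84 for Hbb-bs with Hbb-bt. Without BPA female 1 and BPA male 4, the libraries farthest from the median, the same pairs had r = 0.97, 0.96, 0.95 and 0.87. Pairs with Hba-a2 were looser, with r between 0.78 and 0.85 over 16 libraries and between 0.54 and 0.65 with group means removed. For Hbb-bt with Hba-a2 the group-centred rho was 0.46 (permutation, adjusted p = 0.0748).

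**Figure D3:**
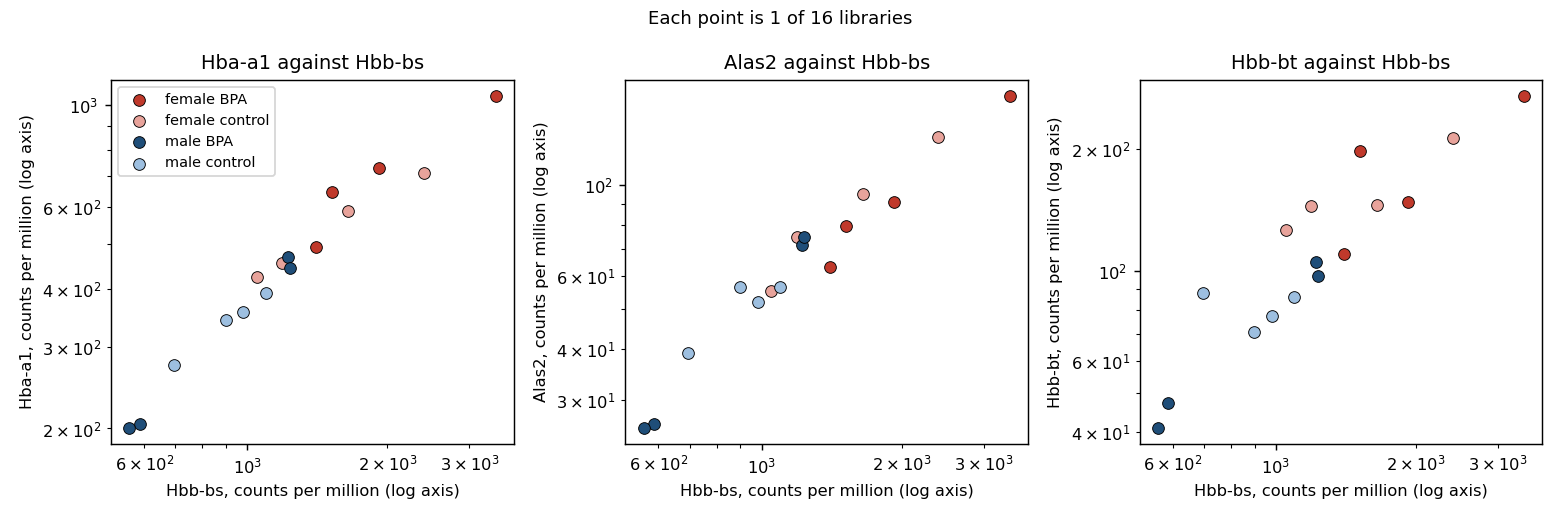
Hba-a1, Alas2 and Hbb-bt (vertical, CPM on a log axis) against Hbb-bs (horizontal, CPM on a log axis), with 1 point for each of 16 libraries. Hba-a1 and Alas2 lie along a line through all libraries (r = 0.98 and 0.97), and in the panel of Hbb-bt 4 libraries lie above the line of the other 12.

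The ratio of the beta-globin transcripts split the libraries into separate sets. Hbb-bt counts were between 0.121 and 0.130 of Hbb-bs counts in 4 libraries (BPA female 3, control females 2 and 3, and control male 3) and between 0.0735 and 0.0889 in the other 12. No library lay between these ranges. The ratio of Hba-a1 to Hbb-bs was 0.427, 0.404, 0.382 and 0.394 in those 4 libraries, against 0.297 to 0.385 in the others, so that BPA female 3, control female 2 and control male 3 had the highest values. Alas2 counts divided by the summed globin counts lay between 0.0314 and 0.0430 over the 16 libraries and did not follow that split. The sets were found from these values, so the split was not tested. The set with the low ratio holds 5 females and 7 males. Hbb-bt did not overlap between the sexes over all libraries, so it could not overlap within this set. The part of the ratio in that difference was not tested.

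**Figure D4:**
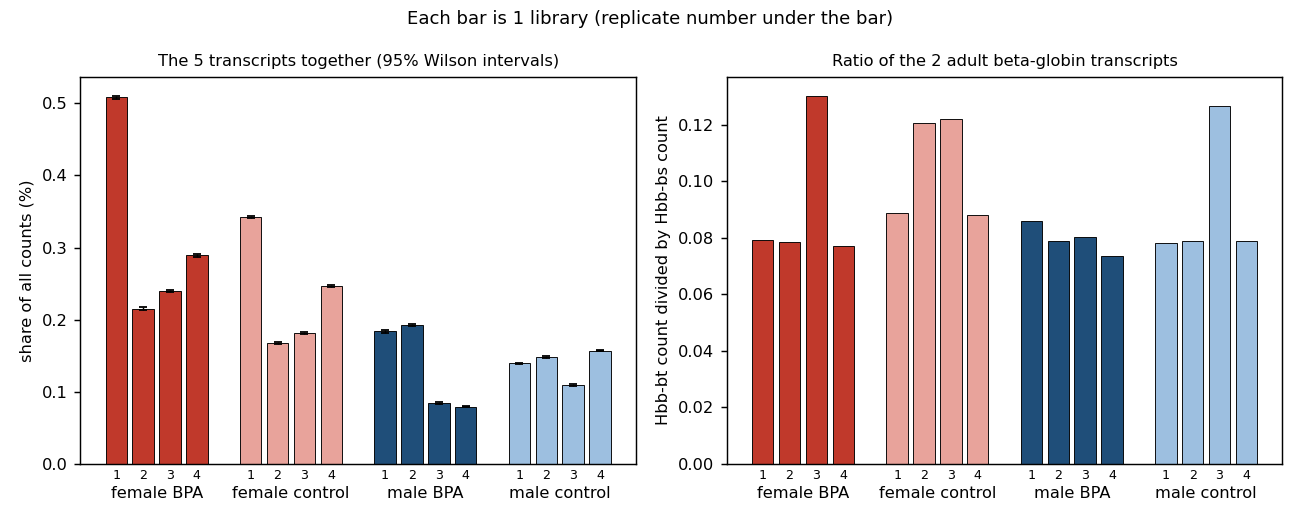
Left, share of all counts (percent) held by the 5 transcripts in each library, with 95% Wilson intervals. Right, the ratio of Hbb-bt to Hbb-bs counts. Bars are single libraries in 4 groups, with replicate numbers under the axis. The share lies between 0.0791 and 0.508%, and 4 libraries have a ratio of 0.121 to 0.130, above 0.0735 to 0.0889 in the rest.

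Other genes of red cells were read from fixed lists, and 0 genes of any of these lists passed an adjusted p of 0.05 for BPA in males, in females or in both. Of 6 embryonic and minor globin genes, 5 were in the table and none reached the filter. Their summed level was between 0.0549 and 0.297 CPM, most of it from Hbq1b, a theta-like globin gene, with a mean of 0.0987 CPM. Hbb-y, the embryonic beta-like gene, and Hba-x, the embryonic alpha-like gene, had 6 and 3 counts over all libraries together.

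Erythroid transcription factors were mostly at the detection limit, with 3 of 7 tested. Zfpm1, the cofactor known as FOG1, averaged 75.6 CPM and Lmo2, a bridging protein of the erythroid complex, 11.7 CPM, and neither is restricted to red cells. Gata1 and Klf1, named here after their values were seen because they define the erythroid programme, averaged 0.0171 and 0.119 CPM. Between the sexes, 3 of 3 tested genes had higher fitted values in females, with a median log2 fold change of 0.28 against -0.00 for all genes tested. Only Lmo2 had an unadjusted p under 0.05, against 2.33% of all genes, and 0 passed adjustment.

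Red cell membrane genes were low, with 10 of 16 tested. Epb41, protein 4.1 of the membrane skeleton, averaged 34.6 ± 5.10 CPM in females and 27.8 ± 3.70 CPM in males (SD, n = 8 each, log2 fold change 0.32 ± 0.09, adjusted p = 0.924 by limma-voom). Ank1, erythrocyte ankyrin, averaged 8.04 ± 1.86 and 7.95 ± 1.161 CPM. Slc4a1, the red cell anion exchanger known as band 3, was singled out after its values were seen as a more restricted member. It averaged 1.46 ± 0.580 CPM in females and 1.04 ± 0.586 CPM in males. All 10 tested genes had higher fitted values in females, 3 of them at an unadjusted p under 0.05, against 2.33% of all genes, and 0 after adjustment, with a median log2 fold change of 0.30.

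Reticulocyte and late erythroid genes were represented by 12 tested of 15, of which 10 had higher fitted values in females. Ube2l6 and 2 others, all higher in females, had an unadjusted p under 0.05, against 2.33% of all genes, and 0 passed adjustment. The median log2 fold change was 0.09. Car2, carbonic anhydrase 2, which oligodendrocytes also make, averaged 642 ± 96.2 CPM in females and 753 ± 197 CPM in males. Bpgm, which makes the 2,3-bisphosphoglycerate that lowers the oxygen affinity of hemoglobin, averaged 291 ± 16.9 and 287 ± 36.3 CPM.

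The 8 enzymes of heme synthesis on the list, Alas1 among them, were all tested, and 3 had higher and 5 lower fitted values in females, with a median log2 fold change of -0.02. Cpox, coproporphyrinogen oxidase, averaged 458 ± 48.6 CPM in females and 461 ± 50.4 CPM in males, and Fech, ferrochelatase, 82.9 ± 7.62 and 79.3 ± 5.89 CPM. Alas1 averaged 41.7 ± 2.31 and 44.9 ± 4.31 CPM (log2 fold change -0.10 ± 0.05, adjusted p = 0.999), while Alas2 stood at 0.91 ± 0.27. Genes that handle heme and iron gave a median of 0.05, with 7 of 11 tested higher in females. Fth1, ferritin heavy chain, averaged 2696 ± 242 CPM in females and 2823 ± 339 CPM in males, and Slc48a1, a heme transporter, 630 ± 59.2 and 672 ± 50.7 CPM. The hypoxia list, 8 of 10 tested, had a median of -0.01, with Ndrg1 at 448 ± 60.1 and 480 ± 69.0 CPM and Slc2a1, a glucose transporter, at 139 ± 13.1 and 147 ± 30.3 CPM.

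Markers of other blood cells were lower than Hbb-bs, Hba-a1 and Hbb-bt, and their levels differed between the lists. Only 1 of 10 neutrophil markers passed the filter, Mmp9, a matrix protease, at 1.48 ± 0.893 CPM in females and 1.68 ± 0.985 CPM in males. S100a8, an abundant neutrophil transcript, averaged 0.172 ± 0.139 and 0.142 ± 0.0675 CPM. The summed neutrophil level was 0.527 to 3.93 CPM in females and 1.18 to 4.42 CPM in males, and the log2 fold change of Mmp9 was -0.28. Lymphocyte and monocyte markers summed to 1.20 to 3.14 CPM in females and 1.07 to 2.33 CPM in males, and the leading gene Ccr2 averaged 0.514 CPM. Of these, 4 of 5 tested had higher fitted values in females, with a median log2 fold change of 0.50 and 0 at an unadjusted p under 0.05. Platelet markers summed to 10.9 to 17.96 CPM in females and 9.66 to 15.02 CPM in males, led by Pf4 at 8.52 CPM and Itga2b at 2.35 CPM, and Ppbp, a defining platelet gene singled out after its values were seen, averaged 0.0577 CPM. All 4 tested platelet markers had higher fitted values in females, with a median of 0.33, 2 at an unadjusted p under 0.05 against 2.33% of all genes, and 0 after adjustment. The part of these blood cells in the difference between the sexes was not tested.

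Vessel and brain cell markers were set beside the difference between females and males in the globin genes. All 10 endothelial markers were tested, summed to 76.8 to 175 CPM in females and 66.5 to 184 CPM in males, and 10 of 10 had higher fitted values in females, with a median log2 fold change of 0.12 and 0 at an unadjusted p under 0.05. Their part was not tested. Itm2a and Cldn5, the tight junction protein claudin-5, averaged 27.98 ± 4.33 and 18.2 ± 5.79 CPM in females and 24.2 ± 3.72 and 17.4 ± 7.06 CPM in males. Pericyte and mural markers had a median of -0.11, 2 of 7 higher in females, with Rgs5 at 8.84 ± 3.62 CPM in females and 9.37 ± 4.13 CPM in males and Pdgfrb at 6.92 ± 1.69 and 7.46 ± 5.24 CPM. Of the microglia markers, 8 of 8 had higher fitted values in females, with a median of 0.46, 1 at an unadjusted p under 0.05, against 2.33% of all genes, and 0 after adjustment. They summed to 718 to 2145 CPM in females and 480 to 1398 CPM in males, with Csf1r, the receptor microglia depend on, at 324 ± 122 and 239 ± 88.2 CPM. The part of microglia in the difference between the sexes was not tested.

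**Figure D5:**
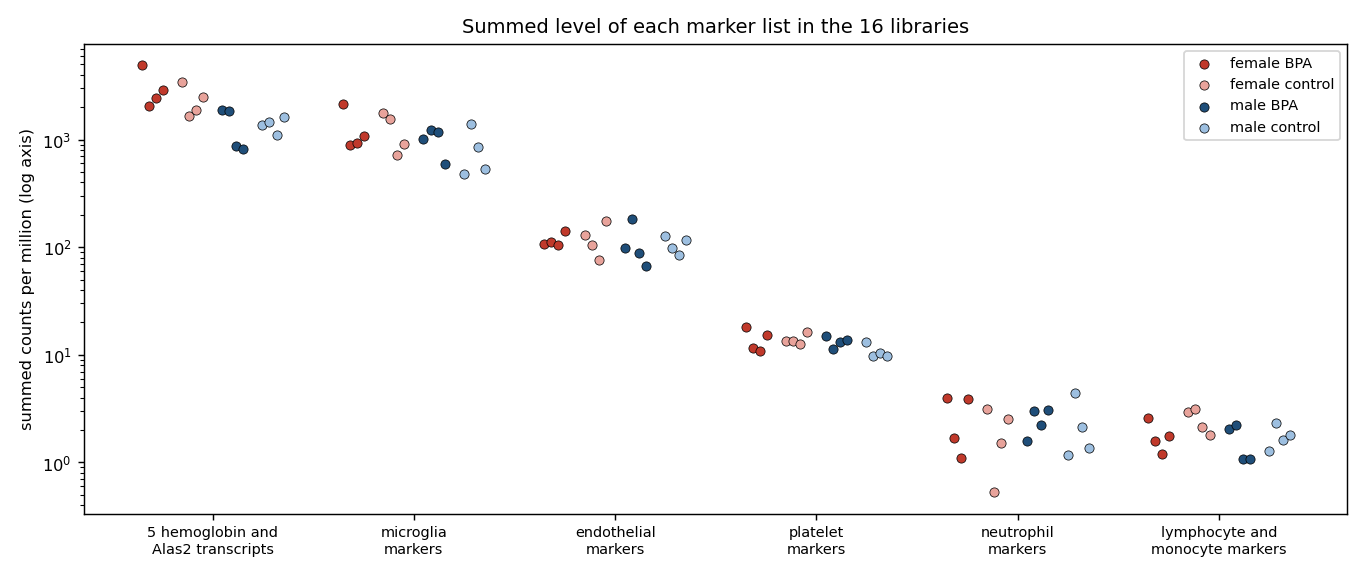
Summed CPM (vertical, log axis) of the 5 hemoglobin and Alas2 transcripts and of 5 marker lists in 16 libraries, coloured by sex and exposure. Neutrophil markers lie between 0.527 and 4.42 CPM and lymphocyte and monocyte markers between 1.07 and 3.14 CPM, while the 5 transcripts lie between 825 and 4897 CPM.

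Astrocyte markers had a median log2 fold change of 0.04 between the sexes, 6 of 7 higher in females, with Slc1a2 and Slc1a3, the main glial glutamate transporters, at 679 ± 141 and 383 ± 88.3 CPM in females and 793 ± 657 and 426 ± 305 CPM in males. Neuron markers had a median of 0.13, 6 of 7 higher in females, with Tubb3 at 14.9 ± 2.63 and 16.0 ± 4.21 CPM and Snap25 at 4.97 ± 1.23 and 4.81 ± 1.31 CPM. Of these markers 1, higher in females, had an unadjusted p under 0.05, against 2.33% of all genes, and 0 passed adjustment. Ependymal and choroid plexus markers had a median of 0.20, 5 of 7 higher in females, with Ttr, transthyretin of the choroid plexus, at 357 ± 188 and 262 ± 131 CPM and Foxj1 at 32.97 ± 7.87 and 40.8 ± 11.4 CPM. Oligodendrocyte markers had a median of -0.03, with 3 of 10 higher in females. An unadjusted p under 0.05 was found for 1 of the 10, without regard to direction, and 0 passed adjustment. Of all genes, 2.33% reached that level with females higher. The part of these brain cell markers in the globin difference was not tested either.

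The genes whose group-centred profile was most like the mean of the 5 transcripts were sought among 12533 named genes whose average reached 1 CPM. The leading gene was Tsc22d3, the glucocorticoid-induced leucine zipper, with r = 0.90 over 16 libraries. It was followed by Pqlc2, a lysosomal amino acid transporter (0.90), Dnase2a, a lysosomal nuclease (0.90), P4ha1, a collagen prolyl hydroxylase subunit (0.89), and Ube2l6, a ubiquitin-like conjugating enzyme (0.87). Evc2, Slc25a39, Il4ra, Cmas and Amigo1 completed the list, at 0.87, 0.86, 0.86, 0.85 and 0.85. With so many genes and 16 libraries, 1% of all ranked genes had r above 0.75, and these values are descriptions. Their amplitude was mostly smaller than that of the members: the SD within groups was 0.11 for Tsc22d3 and 0.53 for Ube2l6 (log2), against 0.45 for Hba-a1 and 0.60 for Alas2. Ube2l6 was also on the reticulocyte list and stood at 10.3 ± 3.33 CPM in females and 6.43 ± 2.48 CPM in males (log2 fold change 0.70 ± 0.24, adjusted p = 0.999).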

How the data were processed

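RNA was measured in 16 libraries of O4-sorted brain cells, 4 per group, grouped by their titles. Libraries were stranded and made from poly(A) RNA, per the labels' protocols. The submitters' processing notes name DESeq2 1.16.1, the counter HTSeq 0.6.1p1, the aligner STAR 2.5.3a, the demultiplexer bcl2fastq 2.20.0.422 and build mm39. The deposited table holds other values beside whole-number read counts per gene, namely normalized counts and these divided by median transcript length, per the labels. Its layout kept the counts from an automated check of units, so limma-voom replaced the negative binomial test planned first. Counts were scaled by TMM (re-implemented in R 4.3.3), filtered at a minimum count of 10 (15 in total), which left 16339 genes with 99.9% of counts, and fitted with limma 3.58.1, 1 coefficient per group, with Benjamini-Hochberg adjustment at 0.05. Tests are two-sided. The procedure was checked on simulated counts for BPA against control only. The comparison between the sexes and the difference of BPA effects were not part of that check. It does not show how large a change in the members would be found. Levels are counts scaled to a common library size (CPM), and log2 CPM used a prior count of 2. Correlations used permutation in Python with numpy 2.4.6. Of 32207 gene IDs, 31717 had a symbol in GENCODE M21. Promoters are from RefSeq and matched 5 of 5 genes by symbol. The members and lists were chosen with earlier results of these data known. Named genes are the members, genes of each list called for BPA or else its 2 most abundant, and the 10 most like the members. Between libraries of a group, chi-square per gene was 10.8 to 84.0 in 24 pairs, more than counting error alone gives. No library was therefore taken as a copy of another, and each was counted as its own replicate. These values cannot show that the animals were separate. Alternatives were other scalings and filters, a replicate block, and libraries left out. A few genes that this rule names are not reported here.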

Additional observations from a re-analysis of the deposited data

Results flagged for a closer look

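In groups of 4 libraries, 36 sets of values were examined for a single library far from the others, and 3 were found, where chance gives about 1 in 20. The ratio of Hbb-bt to Hbb-bs counts was one of these in BPA females, where BPA female 3 had 0.130 and the other three lay between 0.0771 and 0.0791 (gap over range 0.961). The same ratio stood out in control males, where control male 3 had 0.127 and the others 0.0783 to 0.0789 (0.988). BPA female 3 and control male 3 belong to the 4 libraries with the high ratio described above, so both flags restate that split. Alas2 counts over summed globin counts stood out in control males, where control male 1 had 0.0430 and the others 0.0360 to 0.0370 (0.856). The sets of values share counts with each other, so the rate of 1 in 20 is only a rough guide.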

How the results depend on the processing

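None of the 5 transcripts passed an adjusted p of 0.05 for BPA under any alternative run. Between females and males Hbb-bs, Hbb-bt, Hba-a1 and Alas2 kept their direction in every alternative. Their log2 fold changes were 0.83 to 1.06, 1.03 to 1.26, 0.83 to 1.04 and 0.78 to 1.05, in that order. Hba-a2 passed the filter mainly through the females, so its range of 1.12 to 1.4996 is not read as a difference. Hbb-bt passed in 1 of 22, without BPA female 2 (1.26, adjusted p = 0.0458, range 0.0458 to 0.360). The BPA estimates turned sign more easily. Without both BPA male 2 and BPA female 1, an alternative added after the data were seen, Hbb-bt was -0.051 and Alas2 -0.13 in females, and Hbb-bs -0.085, Hba-a1 -0.051 and Hba-a2 -0.17 in both sexes. Leaving out each library in turn gave, in males, Hbb-bs -0.29 to 0.089, Hba-a1 -0.37 to 0.049 and Alas2 -0.46 to 0.065. In females it gave Hbb-bt -0.067 to 0.36 and Alas2 -0.14 to 0.35. In both sexes it gave Hbb-bs -0.0042 to 0.25, Hbb-bt -0.17 to 0.067, Hba-a2 -0.17 to 0.21 and Alas2 -0.17 to 0.10. The causes were not tested.

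Among all genes, calls for BPA in males numbered 1, and 0 with at least 1 CPM in 8 libraries, 0 without both libraries, 2 with no filter, 2 with only the groups compared and 0 to 3 leaving out each library. In females they numbered 0, and 2 with no filter and 1 with only the groups compared. In both sexes they numbered 3, and 0 with the stricter filter, 0 without both libraries and 0 to 5 leaving out each library. The difference of BPA effects gave 0 to 3 calls leaving out each library. With the replicate number as a block, both sexes gave 0 calls. Of 24 pairs of libraries with the same number, 7 had a correlation of deviations over 0.1 (range -0.238 to 0.231). Pairs with different numbers ranged from -0.399 to 0.418. These values give no clear sign of pairing by number, but they cannot exclude it. The summed CPM of the 5 genes ran in the same order of numbers in both female groups, from 1 through 4 and 3 to 2. In the male groups the orders differed. Hba-a2 had no value under the stricter filter. DESeq2 was not run, and limma-voom, planned as an alternative, became the test reported. Counts of 2 to 23 limit what can be said of Hba-a2.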
